A study of Mus musculus with 12 samples.

Results

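The insulin-like growth factor (IGF) pathway was followed through 10 genes, comprising the ligand genes *Igf1* and *Igf2*, the receptor gene *Igf1r*, the substrate genes *Irs1* and *Irs2*, and the binding protein genes *Igfbp2*, *Igfbp3*, *Igfbp4*, *Igfbp5* and *Igfbp7*. The genes were chosen by symbol from the 36186 rows of the expression table, and all 10 were present. RNA-Seq was carried out on forelimb zeugopods (the radius and ulna segment) of E15.5 mouse embryos on a mixed 129/CD-1 background, with chondrocytes collected by laser capture microdissection (LCM). There were 12 libraries in 4 groups of 3, namely the resting, proliferative and hypertrophic compartments of wild type (WT) zeugopods, and *aadd* zeugopods, which are homozygous for frameshift mutations in the first exons of *Hoxa9*, *Hoxa10*, *Hoxa11*, *Hoxd9*, *Hoxd10* and *Hoxd11*. The labels call the hypertrophic libraries hyperproliferative and assign the *aadd* libraries to the resting compartment. The *aadd* zeugopod shows no separate zones, so its whole chondrocyte population was collected, and the captured cells of every group carried some perichondrium. The sources describe 3 independent sets of samples without giving the number of embryos behind each library.

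Values are NRPKM, reads scaled to gene length and library size that the authors normalized further between libraries, so levels can be set side by side both between libraries and, per length, between genes. From the smallest values of single-exon genes, 1 read per kilobase was worth an estimated 0.309 to 0.530 NRPKM. This would equal 1890000 to 3240000 reads per library if the further normalization had left the scale unchanged, which is not known. All 10 genes passed the filter of at least 5 NRPKM in at least 3 libraries that 10936 genes passed. Cartilage matrix markers (10 genes) summed to 2596 to 4955 NRPKM in the resting and proliferative libraries, 2380.1 to 2994 in *aadd*, 3005 in hypertrophic replicate 1, but 677 and 965 in hypertrophic replicates 2 and 3. These 2 libraries also stood apart in markers of other cells, with endothelial sums of 304 and 212 against 21.7 in replicate 1, osteoclast sums of 1351 and 995 against 51.5, macrophage sums of 287 and 231 against 27.3, and osteoblast sums of 3467 and 4582 against 1539.8. The 5 hypertrophic chondrocyte markers summed to 779 to 1212 in the hypertrophic libraries, 306 to 482 in the proliferative, 23.0 to 37.0 in the resting and 19.8 to 25.5 in *aadd*. Skeletal muscle markers reached 92.7 in proliferative replicate 3 and 43.2 in *aadd* replicate 2, against 4.84 to 33.7 elsewhere. The same *aadd* library held the highest tendon and perichondrium sum, 770.4 against 261 to 612 elsewhere, and an endothelial sum of 37.3 against 10.0 and 5.15 in the other *aadd* libraries. In such bulk samples fewer cells of a type and less RNA per cell cannot be told apart.

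IGF1 and IGF2 are secreted growth factors that bind the receptor tyrosine kinase IGF1R, which phosphorylates the docking proteins IRS1 and IRS2 and through them engages the PI3 kinase and Akt pathway. IGF binding proteins hold the ligands outside the cell and control their access to the receptor, while the IGF2 receptor carries IGF2 to the lysosome. In the growth plate the pathway is known to promote chondrocyte proliferation and enlargement, and loss of its ligands or receptor shortens long bones.

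The genes lie on 6 chromosomes of mouse build mm10, with gene spans as deposited with the expression values. GENCODE M21 gave the exon lengths used to estimate reads. *Igf2* was by far the most abundant member, at 386 to 1646 NRPKM, and *Igf1* and *Igfbp2* were low in every WT compartment, with means of at most 8.08 and 7.58. *Igf1*, *Igfbp3* and *Igfbp7* varied most, by 28.8-fold, 43.5-fold and 44.2-fold between the lowest and highest of the 12 libraries, and *Igf1r* varied least, by 2.51-fold. The low ends rest on few reads, about 45 for *Igf1*, 10 for *Igfbp2*, 8 for *Igfbp3* and 6 for *Igfbp7*.

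**Figure D1:**
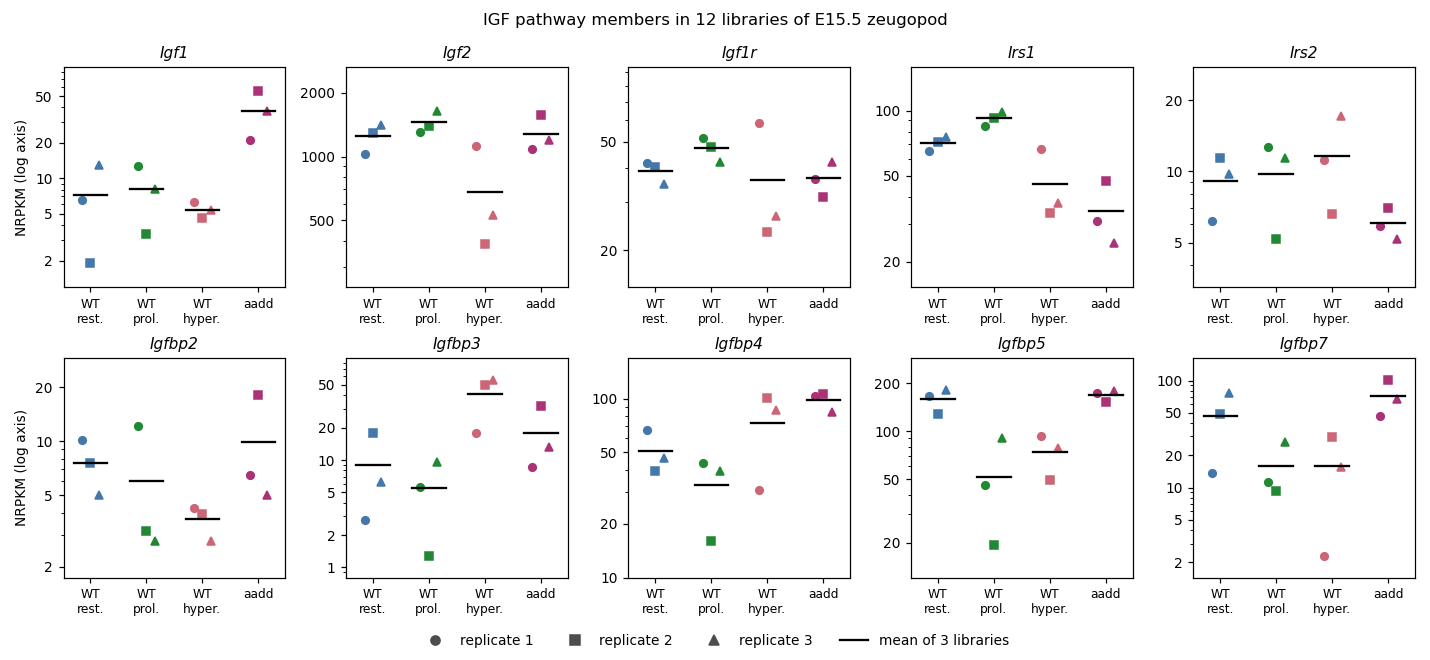
NRPKM of the 10 genes on log axes in the 4 groups, with 1 point per library (shape gives the replicate number) and a line at the mean of 3 libraries. *Igf1* is at 21.0 to 54.6 NRPKM in *aadd*, above all 9 WT libraries, and hypertrophic replicate 1 lies apart from replicates 2 and 3 for *Igf2*, *Igf1r*, *Irs1* and *Igfbp4*.

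Each comparison was tested with limma, and a gene was taken as higher or lower when it passed the study's own criteria, an unadjusted *P* up to 0.05 with a fold change (FC) of at least 2 between WT compartments or 1.5 between *aadd* and WT resting. Between the proliferative and resting compartments 0 members were higher and 1 was lower (*Igfbp5*), against 2.56% and 2.97% of all 10936 genes, and 3 did not overlap between the groups, against 24.0% of all genes. From proliferative to hypertrophic 1 member was higher (*Igfbp3*) and 2 were lower (*Igf2* and *Irs1*), against 5.32% and 4.34%, and 3 did not overlap, against 24.2%. Between hypertrophic and resting 1 was higher (*Igfbp3*) and 2 were lower (*Igf2* and *Igfbp5*), against 5.84% and 7.20%, and 3 did not overlap, against 32.0%. In *aadd* against WT resting 2 were higher (*Igf1* and *Igfbp4*) and 1 was lower (*Irs1*), against 3.78% and 2.78%, and 3 did not overlap, against 15.4%. With so few members, nothing particular to the pathway was read from these counts.

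No member reached a Benjamini-Hochberg adjusted *P* under 0.05 in any pairwise comparison (limma), whereas 0.622%, 0.00%, 6.36% and 0.119% of all genes did in the same order of comparisons. At an unadjusted *P* up to 0.05 alone, 2, 3, 4 and 3 members passed. From proliferative to hypertrophic, where no gene at all passed adjustment, 2115 genes had an unadjusted *P* up to 0.05. Over all 4 groups the moderated F test of limma passed 3 members with adjusted *P* of 0.0444 for *Igf1*, 0.0195 for *Irs1* and 0.0348 for *Igfbp5*, against 13.8% of all genes. The median log2 fold change of the 10 members was -0.28, -0.39, -0.46 and 0.15 in the 4 comparisons, and that of all genes tested was -0.06, 0.04, -0.02 and 0.01. The proliferative to resting, hypertrophic to resting and *aadd* to resting comparisons share the WT resting libraries. The proliferative libraries and the hypertrophic libraries each enter 2 comparisons. The values of a gene in comparisons that share libraries are therefore not independent.

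**Figure D2:**
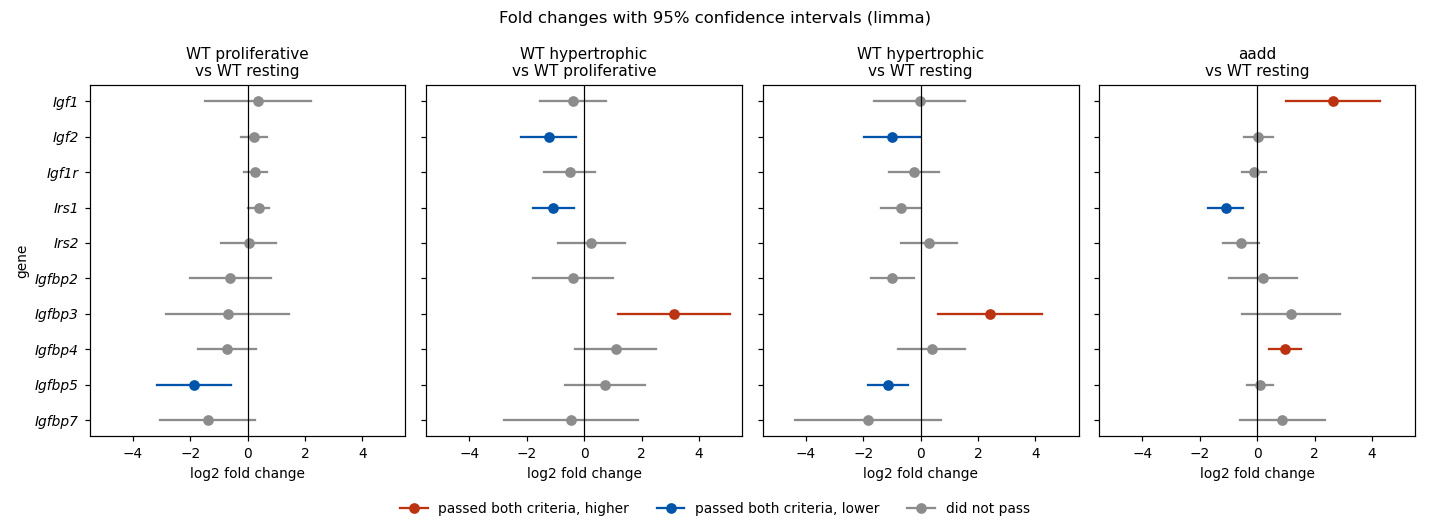
Log2 fold change of each gene in the 4 comparisons, with the 95% confidence interval from limma as a line; red and blue mark genes that passed both criteria as higher or lower and grey those that did not. The *aadd* panel has *Igf1* at 2.65 and *Igfbp4* at 0.96 to the right of 0, *Irs1* at -1.09 to the left, and *Igf2*, *Igf1r* and *Igfbp5* within 0.11 of 0.

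The 3 members that passed in the *Hox* mutant are shown with the 250 bases that precede their RefSeq transcription start (GRCm38.p6, the assembly of mm10), since Hox proteins bind short AT-rich sites. The windows are chr10:87860861-87861110 on the plus strand for *Igf1*, chr1:82291440-82291689 on the minus strand for *Irs1* and chr11:99040994-99041243 on the plus strand for *Igfbp4*, each written 5′ to 3′ along the gene. The *Igf1* window lies inside the deposited span of the gene, which begins at 87859056, so the bases before that span were not examined. Capitals mark TTTAT on either strand, the core of the site of Hox groups 9 to 13.
Igf1: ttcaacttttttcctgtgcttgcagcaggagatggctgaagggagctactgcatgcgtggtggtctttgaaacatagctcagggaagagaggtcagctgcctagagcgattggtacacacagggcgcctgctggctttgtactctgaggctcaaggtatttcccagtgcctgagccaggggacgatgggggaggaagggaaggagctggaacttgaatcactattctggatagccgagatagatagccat
Irs1: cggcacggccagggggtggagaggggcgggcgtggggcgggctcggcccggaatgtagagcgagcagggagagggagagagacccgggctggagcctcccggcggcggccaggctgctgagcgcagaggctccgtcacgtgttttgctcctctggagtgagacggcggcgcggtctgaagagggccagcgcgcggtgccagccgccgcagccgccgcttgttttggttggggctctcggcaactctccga
Igfbp4: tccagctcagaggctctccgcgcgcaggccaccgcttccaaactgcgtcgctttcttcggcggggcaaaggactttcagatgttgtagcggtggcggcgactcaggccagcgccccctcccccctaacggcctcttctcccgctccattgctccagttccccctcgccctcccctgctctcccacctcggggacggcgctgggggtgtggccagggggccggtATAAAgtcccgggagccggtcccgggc

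The core occurs once, in *Igfbp4*, 27 bases before the start, where it lies inside a TATAAA box that begins at 28. Of the 10 members 2 have the core (*Igfbp4* and *Igf2*), in 3 of their 14 annotated starts, and 37.3% of 32851 mouse promoter windows of this length have it. TATAAA was found in 1 member, at 1 of the 14 starts, and in 12.4% of all windows. GGGCGG, the box bound by Sp1, was found in 6 members, at 7 of the 14 starts, and in 32.7% of all windows. The *Irs1* window holds GGGCGG 2 times and is 72.4% G and C, the *Igfbp4* window is 69.2% and the *Igf1* window 52.8%, against a median of 52.4%. A match describes the letters only, and no match says nothing of binding elsewhere.

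*Igf1* (chr10:87859056-87937047) encodes the ligand that growth hormone induces in many tissues. Its NRPKM was 6.52, 1.90 and 13.1 in the resting libraries, 12.7, 3.38 and 8.13 in the proliferative, 6.26, 4.61 and 5.37 in the hypertrophic, and 21.0, 54.6 and 37.3 in *aadd*. The 3 WT groups overlapped throughout, and every *aadd* library lay above every WT library. The mean was 37.6 ± 16.8 (SD, n = 3) in *aadd* and 7.17 ± 5.62 (n = 3) in WT resting, which gives a log2 fold change of 2.65 with SE 0.69, or 6.28-fold on the log2(NRPKM + 0.1) scale (limma, adjusted *P* = 0.302). Between WT compartments the log2 fold change of *Igf1* was 0.36, -0.39 and -0.03, and none passed. The highest *aadd* value came from replicate 2, the library with the high muscle, tendon and endothelial sums. Without it the log2 fold change was 2.33 and still passed the criteria (limma, adjusted *P* = 0.455). The study named *Igf1* and *Irs1* from these libraries, so their values here are not independent evidence for them.

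*Igf2* (chr7:142650768-142661035) encodes the fetal IGF ligand and is expressed from the paternal allele. It stood at 1028, 1296 and 1413 NRPKM in the resting libraries, 1313, 1394 and 1646 in the proliferative, 1119, 386 and 529 in the hypertrophic, and 1083, 1568 and 1201 in *aadd*. Replicates 2 and 3 of the hypertrophic group were the lowest of the 12 libraries, whereas replicate 1 lay within the resting range. *Igf2* was lower in the hypertrophic than in the proliferative compartment, at 678 ± 388 against 1451 ± 174 (SD, n = 3 each), with a log2 fold change of -1.24, SE 0.40 (limma, adjusted *P* = 0.201). Against resting the log2 fold change was -1.01, SE 0.40 (limma, adjusted *P* = 0.177), with overlap between the groups. In *aadd* the level was 1284 ± 253 against 1245 ± 198 in WT resting (log2 fold change 0.04, 95% interval -0.46 to 0.54).

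The hypertrophic values of *Igf2* followed the library. With replicate 1 left out, the log2 fold change from proliferative to hypertrophic was -1.68 (limma, adjusted *P* = 0.0121), and without replicate 2 or 3 it was -0.91 and -1.14 and no longer passed, nor did it without proliferative replicate 3. With replicate 1 as the only hypertrophic library it was -0.37 and did not pass, the lone library being assumed to vary like the others. Replicates 2 and 3 are the libraries with the high endothelial, osteoclast, macrophage and osteoblast sums and the low cartilage matrix sums, and the part of these cells in the result was not tested.

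*H19*, the maternally expressed noncoding RNA gene of the same imprinted locus, had NRPKM of 1120.4, 1517 and 1486 in resting, 1513, 1691 and 1674 in proliferative, 1419, 540.0 and 687 in hypertrophic and 1157, 1533 and 1067 in *aadd* libraries. It was lower in the hypertrophic than in the proliferative compartment (log2 fold change -1.01, SE 0.37, limma adjusted *P* = 0.231), and as with *Igf2* the low values were those of replicates 2 and 3. The call of *H19* was lost without any 1 of the 3 proliferative libraries, without hypertrophic replicate 2 or 3, with the replicate block, under quantile normalization and without the filter on low values, and with a library left out the log2 fold change was -1.41 to -0.72. With replicate 1 as the only hypertrophic library it was -0.19. The ratio of *Igf2* to *H19* NRPKM stayed between 0.715 and 1.13 in all 12 libraries, lowest in the hypertrophic (0.715 to 0.788) and highest in the *aadd* group (0.936 to 1.13). *Igf2os*, transcribed antisense to *Igf2*, was at 5.01 and 8.45 NRPKM in hypertrophic replicates 2 and 3 and at 12.4 to 27.2 elsewhere. Its log2 fold change from proliferative to hypertrophic was -1.26 (limma, adjusted *P* = 0.248), a call lost on the same omissions of a library and without the filter. The use of strand in counting is not given in the sources used here, so reads of *Igf2* and *Igf2os* may be mixed where they overlap.

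Set against each other per length, *Igf1* made up 0.146% to 0.918% of the summed ligand NRPKM in resting, 0.242% to 0.961% in proliferative, 0.557% to 1.18% in hypertrophic and 1.90% to 3.37% in *aadd* libraries. The 4 groups thus all had *Igf2* as the main ligand transcript, and the *aadd* shares did not overlap those of WT.

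*Igf1r* (chr7:67952257-68233667), the receptor gene, was the steadiest member. It was at 41.7, 40.5 and 35.0 NRPKM in resting, 51.6, 48.0 and 42.2 in proliferative, 58.6, 23.4 and 26.8 in hypertrophic and 36.6, 31.5 and 42.0 in *aadd* libraries. All proliferative libraries were above all resting ones, by a log2 fold change of 0.27 with a 95% interval of -0.12 to 0.67 that did not pass (limma, adjusted *P* = 0.439). The hypertrophic group held both the highest and the lowest values of the 12 libraries. Without hypertrophic replicate 1 the log2 fold change from proliferative to hypertrophic was -0.91 (adjusted *P* = 0.0304), short of the 2-fold criterion, and with replicate 1 alone it was 0.31. In *aadd* against WT resting the log2 fold change of *Igf1r* was -0.10, with an interval of -0.52 to 0.32.

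*Irs1* (chr1:82233105-82291439) encodes the docking protein that links the receptor to PI3 kinase. NRPKM was 64.8, 71.5 and 75.3 in resting, 84.7, 92.6 and 98.8 in proliferative, 66.5, 33.5 and 37.3 in hypertrophic and 31.1, 47.2 and 24.4 in *aadd* libraries. The proliferative libraries were the 3 highest of the 12, and the *aadd* libraries lay below all resting and proliferative ones. *Irs1* was lower in *aadd*, at 34.2 ± 11.7 against 70.6 ± 5.34 in WT resting (SD, n = 3 each), with a log2 fold change of -1.09, SE 0.26, or 2.13-fold (limma, adjusted *P* = 0.253). It passed with each library left out in turn, at its smallest without *aadd* replicate 3 (-0.88).

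*Irs1* was also lower in the hypertrophic than in the proliferative compartment, at 45.8 ± 18.0 against 92.0 ± 7.08 (log2 fold change -1.07, SE 0.29, limma, adjusted *P* = 0.170). Replicate 1 at 66.5 lay within the resting range and replicates 2 and 3 lay below it. Without replicate 1 the log2 fold change was -1.37 (adjusted *P* = 0.0109), without replicate 2 or 3 it was -0.88 and -0.96 and under 2-fold, and with replicate 1 alone -0.47. The marker sums named beside *Igf2* move with these values too, and their part was not tested. From resting to proliferative *Irs1* was 1.30-fold higher without overlap (limma, adjusted *P* = 0.286), short of the 2-fold criterion.

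*Irs2* (chr8:10986964-11008430), the second docking protein gene, was at 6.19, 11.5 and 9.72 NRPKM in resting, 12.7, 5.18 and 11.4 in proliferative, 11.2, 6.60 and 17.2 in hypertrophic and 5.89, 7.02 and 5.17 in *aadd* libraries. The 4 groups overlapped in every comparison made and none passed. In *aadd* the log2 fold change was -0.56, with an interval of -1.17 to 0.06 (limma, adjusted *P* = 0.579). *Irs1* exceeded *Irs2* in all 12 libraries, 2.17-fold to 17.9-fold.

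Among the binding protein genes *Igfbp5* (chr1:72858036-72874865), whose product binds both ligands and the matrix, was the most abundant in the resting compartment. It was at 166, 128 and 180.1 NRPKM in resting, 45.6, 19.3 and 90.5 in proliferative, 93.4, 49.7 and 77.9 in hypertrophic, and 174, 152 and 179 in *aadd* libraries. Every resting and *aadd* library was above every proliferative and hypertrophic one. The mean was 51.8 ± 36.0 in proliferative against 158 ± 26.9 in resting (SD, n = 3 each), a log2 fold change of -1.86, SE 0.53, or 3.63-fold lower (limma, adjusted *P* = 0.190). The hypertrophic mean of 73.7 ± 22.1 was 2.19-fold below resting (log2 fold change -1.13, SE 0.28, adjusted *P* = 0.0689). Without hypertrophic replicate 2 this log2 fold change was -0.87 and under 2-fold, and with replicate 1 alone it was -0.74, and neither passed. In *aadd* the level was 168 ± 14.7, a log2 fold change of 0.10 from WT resting with an interval of -0.34 to 0.55.

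*Igfbp4* (chr11:99041260-99052643) encodes a binding protein that is cleaved by the protease PAPPA. Its NRPKM was 66.5, 39.6 and 46.6 in resting, 43.6, 16.0 and 39.5 in proliferative, 31.0, 100.5 and 86.8 in hypertrophic and 104, 105 and 83.9 in *aadd* libraries. The *aadd* libraries were all above the resting ones, and the hypertrophic group was divided, with replicate 1 below all resting libraries and replicates 2 and 3 above them. *Igfbp4* was higher in *aadd*, at 97.6 ± 11.9 against 50.9 ± 14.0 in WT resting (log2 fold change 0.96, SE 0.23, 1.95-fold, limma, adjusted *P* = 0.261). The call was lost when all 12 libraries shared one fit (limma, adjusted *P* = 0.729). From proliferative to hypertrophic the log2 fold change of *Igfbp4* was 1.10 and did not pass. It passed with all 12 libraries in one fit (limma, adjusted *P* = 0.1705) and, at 1.63, without hypertrophic replicate 1. With replicate 1 alone it was 0.04. Hypertrophic replicates 2 and 3 had the high sums of other cell types, whose part was not tested.

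*Igfbp3* (chr11:7206091-7213923), the main IGF carrier of the adult circulation, was at 2.77, 17.7 and 6.28 NRPKM in resting, 5.63, 1.28 and 9.54 in proliferative, 17.7, 50.1 and 55.9 in hypertrophic and 8.68, 31.8 and 13.3 in *aadd* libraries. The hypertrophic group had the highest mean, and its lowest value, in replicate 1, was barely above the highest resting one. *Igfbp3* was higher in hypertrophic than in proliferative cells, 41.2 ± 20.6 against 5.49 ± 4.13 (log2 fold change 3.12, SE 0.81, limma, adjusted *P* = 0.163). Against resting, at 8.92 ± 7.81, the log2 fold change was 2.42, SE 0.75 (limma, adjusted *P* = 0.106). With replicate 1 as the only hypertrophic library these were 2.07 and 1.37 and neither passed, and without it 3.64 and 2.95 (limma, adjusted *P* = 0.0404 and 0.0406). Without hypertrophic replicate 3 the *Igfbp3* call against resting was lost, at a log2 fold change of 2.12. The endothelial, osteoclast, macrophage and osteoblast sums rank the 3 hypertrophic libraries with replicate 1 lowest, as *Igfbp3* does, and their part was not tested. In *aadd* the log2 fold change of *Igfbp3* from resting was 1.18, with an interval of -0.55 to 2.90.

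*Igfbp2* (chr1:72824480-72852471) was at 10.2, 7.53 and 5.01 NRPKM in resting, 12.1, 3.15 and 2.79 in proliferative, 4.27, 3.96 and 2.78 in hypertrophic and 6.50, 18.2 and 5.002 in *aadd* libraries. All hypertrophic libraries lay below the resting ones, a log2 fold change of -0.99, SE 0.31 (limma, adjusted *P* = 0.109) that was just short of 2-fold. It passed without resting replicate 3 (-1.26), hypertrophic replicate 1 (-1.11) or hypertrophic replicate 2 (-1.06). Between proliferative and resting *Igfbp2* passed only without proliferative replicate 1 (-1.27). The highest value was in *aadd* replicate 2, and the *aadd* and resting groups overlapped (log2 fold change 0.20, interval -0.98 to 1.39).

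*Igfbp7* (chr5:77349240-77408045) encodes a related secreted protein that binds IGFs only weakly and is known from vessel walls. It was at 13.8, 48.2 and 76.9 NRPKM in resting, 11.2, 9.30 and 26.8 in proliferative, 2.30, 29.7 and 15.6 in hypertrophic and 46.2, 102 and 67.9 in *aadd* libraries. The resting libraries were far apart, and hypertrophic replicates 2 and 3, with endothelial sums of 304 and 212, had 29.7 and 15.6 against 2.30 in replicate 1. *Igfbp7* was higher than this in resting replicates 2 and 3 and in all *aadd* libraries, where endothelial sums were 5.15 to 37.3. The part of endothelial cells was not tested. No comparison passed, with log2 fold changes of -1.39 for proliferative and -1.84 for hypertrophic against resting and 0.88 for *aadd*. Same-numbered resting and proliferative libraries may be paired, which was not established. With the number as a block *Igfbp7* was lower in proliferative (limma, adjusted *P* = 0.207), which brings the members that passed there from 1 to 2. Without the block, *Igfbp7* passed there when resting replicate 1 (-2.10) or proliferative replicate 3 (-1.85) was left out. In hypertrophic against resting it passed without hypertrophic replicate 2 (-2.60). With hypertrophic replicate 1 alone *Igfbp7* passed against resting at -3.96 and against proliferative at -2.56, on about 6 reads in that library. Its 3′ neighbour *Polr2b* overlaps it on the other strand and was at 16.7 to 33.0 NRPKM.

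The members *Igfbp2* to *Igfbp5* together came to 245, 193 and 238 NRPKM in resting, 107, 39.7 and 142 in proliferative, 146, 204 and 223 in hypertrophic and 293, 307 and 281 in *aadd* libraries. *Igfbp1* and *Igfbp6* are not part of this sum. All *aadd* sums exceeded all WT sums, and all proliferative sums were below all resting ones. *Igfbp5* made up 66.4% to 75.7% of the sum in resting libraries and 49.4% to 63.7% in *aadd*, where *Igfbp4* contributed 29.8% to 35.3% against 19.6% to 27.1% in resting. In hypertrophic libraries *Igfbp3* gave 12.1%, 24.5% and 25.02%, compared with at most 10.4% in any other library. *Igf2* NRPKM was 11.6 to 35.1 times this sum in proliferative, 4.19 to 6.72 times in resting, 3.70 to 5.11 times in *aadd* and 7.64, 1.89 and 2.37 times in the hypertrophic libraries. These sums and shares are descriptions without a test.

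**Figure D3:**
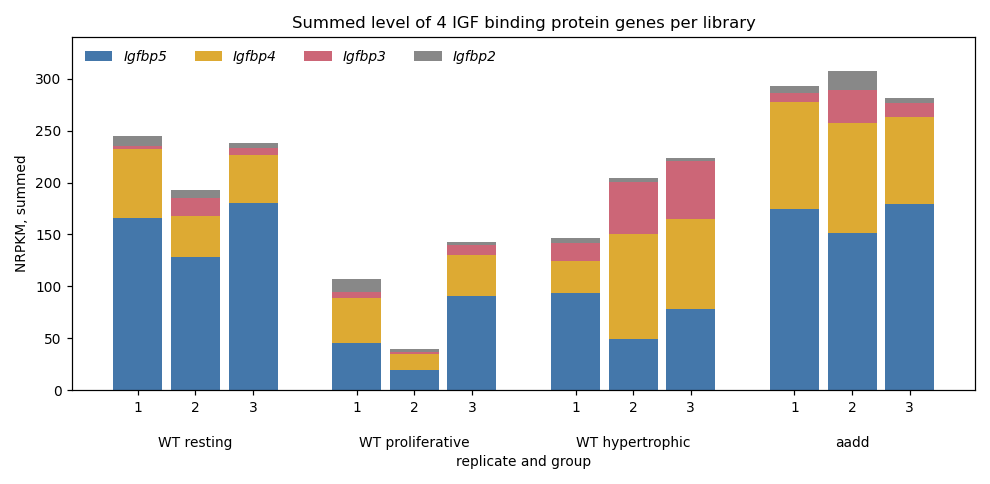
Stacked bars of the NRPKM of *Igfbp5*, *Igfbp4*, *Igfbp3* and *Igfbp2* in each of the 12 libraries, by replicate and group, on an axis from 0. The *aadd* bars reach 281 to 307, the resting bars 193 to 245 and the proliferative bars 39.7 to 142, and the *Igfbp3* segment is largest in hypertrophic replicates 2 and 3.

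The order of group means was *aadd*, proliferative, resting, hypertrophic for *Igf1*, with overlap between all neighbours except *aadd* and proliferative. For *Irs1* it was proliferative, resting, hypertrophic, *aadd*, with no overlap between the first 2 only. For *Igfbp5* it was *aadd*, resting, hypertrophic, proliferative, with no overlap between resting and hypertrophic only. For *Igf2*, *Irs2*, *Igfbp2*, *Igfbp3*, *Igfbp4* and *Igfbp7* every pair of neighbours overlapped, and for *Igf1r* only proliferative and resting did not.

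Genes with the pattern most like 3 members were taken by Pearson correlation of log2 values over the 12 libraries, which share the 4 groups and the division within the hypertrophic group. For *Igf1* they were *Foxc2* (*r* = 0.926), a forkhead transcription factor gene, *Mecom* (0.912), a zinc finger transcription factor gene, and *Cenpn* (0.894), a centromere protein gene. *Foxc2* was at 16.4 to 26.2 NRPKM in *aadd* and 3.53 to 12.55 in WT libraries. For *Igf2* they were *Prelp* (0.973), a matrix proteoglycan gene, *Dym* (0.972), a Golgi protein gene, and *Zim1* (0.967), an imprinted zinc finger gene. *Prelp* was at 15.0 and 23.3 NRPKM in hypertrophic replicates 2 and 3 and at 163 to 392 elsewhere. For *Irs1* they were *Hip1r* (0.964), *Fads2* (0.937), a fatty acid desaturase gene, and *Pygl* (0.931), a glycogen phosphorylase gene. *Pygl* was at 2.09 to 9.75 NRPKM in *aadd* and 16.2 to 23.8 in WT resting.

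Of 48 other genes of the pathway 36 entered the test. Between the proliferative and resting compartments 3 of the 36 were higher (*Foxo1*, *Foxo4* and *Socs2*) and 0 lower, against the 2.56% and 2.97% above, and the count was 2 to 5 with a library left out. From proliferative to hypertrophic 2 were higher (*Pik3r1* and *Socs2*) and 3 lower (*Foxo4*, *H19* and *Igf2os*), against 5.32% and 4.34% of all genes. That count of 5 was 0 without proliferative replicate 3, 2 without proliferative replicate 2, 1 without hypertrophic replicate 2 or 3 and 8 without hypertrophic replicate 1, and it was 2 under quantile normalization and 3 without the filter on low values. Between hypertrophic and resting 5 were higher (*Grb14*, *Grb2*, *Pik3r1*, *Foxo1* and *Socs2*) and 1 lower (*Pappa2*), against 5.84% and 7.20% of all genes, and with a library left out 4 to 9 passed, 9 being without hypertrophic replicate 1 and 4 without hypertrophic replicate 2 or resting replicate 3. In *aadd* 4 were higher than WT resting (among them *Htra1*, *Pik3r1* and *Socs2*) and 0 lower, against 3.78% and 2.78% of all genes, and 2 passed without *aadd* replicate 2. With the replicate number as a block, *Grb14* (higher, limma adjusted *P* = 0.0986) and *Pappa2* (lower) also passed between proliferative and resting, making 5. With replicate 1 as the only hypertrophic library, 2 passed from proliferative and 3 from resting to hypertrophic.

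*Socs2*, which encodes a suppressor of growth hormone receptor signalling, entered the test through its hypertrophic libraries and 2 *aadd* libraries alone, so its values are given as a description and its place in the counts above supports nothing. Its NRPKM was 1.25, 1.03 and 1.33 in resting, 3.69, 3.50 and 2.79 in proliferative, 7.39, 6.27 and 7.46 in hypertrophic and 4.76, 6.98 and 5.70 in *aadd* libraries. The WT compartments did not overlap, and every *aadd* library was above every resting and proliferative one. The log2 fold change was 1.39 (SE 0.19) for proliferative, 2.46 (SE 0.18) for hypertrophic and 2.17 (SE 0.20) for *aadd*, each against WT resting. The hypertrophic values of *Socs2* were alike in all 3 libraries, and with replicate 1 alone the log2 fold change from resting was 2.53.

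**Figure D4:**
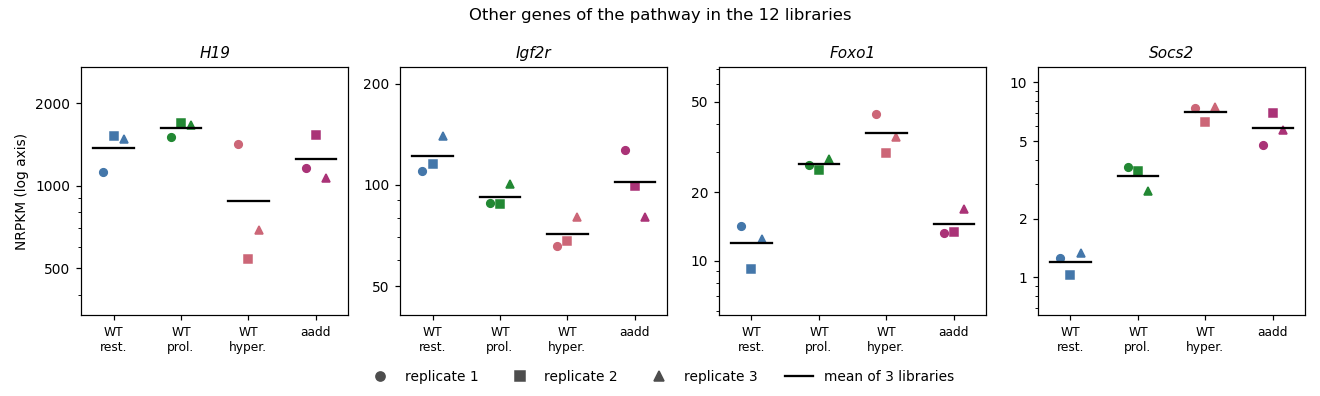
NRPKM of *H19*, *Igf2r*, *Foxo1* and *Socs2* on log axes in the 4 groups, with 1 point per library and a line at the mean. *Socs2* separates the 3 WT compartments at 1.03 to 1.33, 2.79 to 3.69 and 6.27 to 7.46, while *H19* is at 540.0 and 687 in hypertrophic replicates 2 and 3 and at 1067 or more elsewhere.

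*Foxo1*, a transcription factor gene whose product Akt excludes from the nucleus, was at 14.1, 9.21 and 12.4 NRPKM in resting, 26.3, 25.04 and 28.1 in proliferative, 44.2, 29.7 and 35.0 in hypertrophic and 13.3, 13.4 and 16.9 in *aadd* libraries. The WT compartments did not overlap, and *aadd* overlapped resting. Its log2 fold change was 1.16 (SE 0.20, limma adjusted *P* = 0.0848) in proliferative and 1.601 (SE 0.24, adjusted *P* = 0.0199) in hypertrophic against resting, the first of which fell to 0.99 and short of the fold criterion without resting replicate 2. *Foxo4* was higher in proliferative than in resting (17.6 ± 5.21 against 7.85 ± 2.64, log2 fold change 1.16, adjusted *P* = 0.190), a call lost without resting replicate 3. In hypertrophic libraries *Foxo4* was at 11.6, 4.25 and 5.59 NRPKM against 11.6, 21.1 and 20.1 in proliferative, with overlap between the groups (log2 fold change -1.37, limma adjusted *P* = 0.196). That call of *Foxo4* was lost with the replicate block and without replicate 2 or 3 of either group, and with replicate 1 as the only hypertrophic library the log2 fold change was -0.55. The low values were those of hypertrophic replicates 2 and 3, in which the sums of other cell types were high, and the part of those cells was not tested.

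*Pik3r1*, the gene for a regulatory subunit of PI3 kinase, was at 7.83, 11.6 and 16.0 NRPKM in resting, 20.1, 30.3 and 29.3 in hypertrophic and 26.04, 20.8 and 29.9 in *aadd* libraries. It was higher than resting in both, by log2 fold changes of 1.20 and 1.15 (limma, adjusted *P* = 0.0766 and 0.275), and the hypertrophic call of *Pik3r1* was lost without resting replicate 1. Proliferative libraries had 16.6, 10.5 and 10.7 (log2 fold change to hypertrophic 1.08, limma adjusted *P* = 0.160). That call was lost under quantile normalization and without replicate 2 or 3 of either group. With replicate 1 as the only hypertrophic library the log2 fold changes of *Pik3r1* were 0.82 from resting and 0.70 from proliferative. Replicates 2 and 3 had the high sums of other cell types, whose part was not tested. *Htra1*, encoding a secreted protease that cleaves binding proteins, was at 4.10, 12.7 and 11.5 NRPKM in resting and 18.6, 30.5 and 15.8 in *aadd* libraries, without overlap (log2 fold change 1.29, limma adjusted *P* = 0.447). The call of *Htra1* was lost without *aadd* replicate 1 or 2, without the filter on low values and with all 12 libraries in one fit, and its log2 fold change was 0.77 to 1.58 with a library left out. *aadd* replicate 2, the highest for *Htra1*, is the library with the high tendon, muscle and endothelial sums, and their part in the result was not tested.

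*Pappa2*, which encodes a protease that cleaves IGFBP5, was at 2.44, 15.8 and 19.4 NRPKM in resting and 1.35, 0.468 and 0.782 in hypertrophic libraries, a log2 fold change of -3.36 (SE 0.82). *Pappa2* entered the test through resting replicates 2 and 3 and the *aadd* libraries alone. Its values are therefore given as a description, and its place in the counts above supports nothing. *Grb2*, an adaptor gene, was at 8.97, 8.35 and 6.35 NRPKM in resting and 13.1, 20.5 and 18.4 in hypertrophic libraries (log2 fold change 1.11, limma adjusted *P* = 0.05004). *Grb14*, another adaptor gene, was at 0.809, 5.53 and 2.65 NRPKM in resting and 7.48, 11.7 and 7.65 in hypertrophic libraries (log2 fold change 1.87, limma adjusted *P* = 0.132). Both calls were lost without resting replicate 3, without hypertrophic replicate 2 and with replicate 1 as the only hypertrophic library, when the log2 fold changes were 0.74 and 1.65, and that of *Grb14* also without the filter on low values. *Grb2* was highest in hypertrophic replicates 2 and 3, those with the high sums of other cell types, whose part was not tested. *Igf2r*, chosen for mention after its values were seen, was at 110.3, 115 and 139.7 NRPKM in resting, 88.6, 87.8 and 101 in proliferative and 65.7, 68.3 and 80.5 in hypertrophic libraries, with no overlap between the compartments. From resting to hypertrophic its log2 fold change was -0.77, SE 0.18 (adjusted *P* = 0.0613), short of the 2-fold criterion, and with replicate 1 alone it was -0.88. In *aadd* *Igf2r* was at 127, 99.3 and 80.2 NRPKM and overlapped resting.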

How the data were processed

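RNA-Seq was performed by the authors on LCM samples of 20 ng total RNA, amplified with the NuGen Ovation system and tagmented with Nextera. Per the labels and the study's methods, reads were aligned to mm10, with TopHat named in the submitters' processing notes, multiply aligned and duplicate reads were removed, and expression was computed in GeneSpring. The deposited values are RPKM, normalized further between libraries by the authors (NRPKM), with zeros kept and no counts. How the libraries were scaled and whether strand was used are not given in the sources used here.

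Tests were run with limma 3.58.1 (R 4.3.3) after a log2 transform of NRPKM with a pseudocount of 0.1. Of all rows, 10936 reached 5 NRPKM in 3 or more of the 12 libraries and entered. Fold changes are on this scale and understate those of low genes. Each comparison used its 6 libraries without covariates. *P* values were adjusted by Benjamini-Hochberg over all genes tested. An exact permutation test of 3 against 3 libraries cannot go below 0.1 and was not used. *P* values measure the spread between these libraries. Marker lists (cartilage matrix, hypertrophic chondrocyte, osteoblast, endothelial, osteoclast, macrophage, skeletal muscle, tendon and perichondrium) were summed per library. Tables and plots were made in Python 3.11.15 with pandas 2.3.3 and matplotlib 3.10.9, and the fits were tested on simulated data.

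The members, pathway lists and markers were chosen with earlier results of these data known. Genes named are the 10 members, the genes of the pathway lists that passed (1 of them is not reported here), and the 3 genes most correlated with *Igf1*, *Igf2* and *Irs1*. Same-numbered libraries were checked for pairing by correlating their deviations from the group means. For the resting and proliferative libraries the 3 correlations were 0.281, 0.179 and 0.198, over 0.1 in each pair. The other comparisons had at least 1 pair below this. However, replicate 2 of *aadd* and of WT resting, which differ in genotype, had 0.280. Libraries of unlike number were not compared, so pairing was not established. Alternatives were a pseudocount of 1, no filter, 2 rescalings, one fit of all 12 libraries, the replicate block, a variance trend and each library left out.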

Additional observations from a re-analysis of the deposited data

How the results depend on the processing

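The number of members passing against WT resting in *aadd* was 3, 2 with all 12 libraries in one fit, and 3 or 4 under the other alternatives. Between proliferative and resting it was 1, 2 with the replicate block and 1 to 2 with a library left out. It was 3 from proliferative to hypertrophic and 3 from resting to hypertrophic, each 1 to 4 with a library left out and 1 with replicate 1 as the only hypertrophic library, an alternative chosen after seeing the data. In the F test over 4 groups it was 3, 0 without the filter on low values and 0 to 7 with a library left out, 7 being without hypertrophic replicate 1 and 0 without hypertrophic replicate 3 or *aadd* replicate 1. In the other 3 comparisons, where at least 1 pair had *r* under 0.1, the block ended the call of *Igf2* from resting to hypertrophic. That call was also lost without the filter, on rescaling by the median of ratios and with any library left out other than hypertrophic replicate 1. The block added *Igfbp7* from resting to hypertrophic and *Igfbp3* in *aadd*. Same-numbered libraries had *r* of -0.058 to 0.124, 0.063 to 0.111 and -0.097 to 0.280 in the 3 comparisons. The block changed the call of no other member. The call of *Igf2* from proliferative to hypertrophic was lost under quantile normalization and without proliferative replicate 3 or hypertrophic replicate 2 or 3. Over all genes, without the filter 1268, 1590, 2282 and 1088 passed in the 4 comparisons, against 605, 1057, 1426 and 717, and from proliferative to hypertrophic 2007 passed without hypertrophic replicate 1 and 658 without replicate 3.

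No call reversed. Among log2 fold changes that passed no criterion, that of *Igf2* between proliferative and resting was -0.28 under quantile normalization. With a library left out, those between proliferative and resting ranged from -0.38 to 0.98 for *Igf1*, -0.21 to 0.44 for *Irs2* and -1.33 to 0.11 for *Igfbp3*. Those from proliferative to hypertrophic ranged from -0.91 to 0.033 for *Igf1*, -0.76 to 0.27 for *Igfbp2*, -0.15 to 0.61 for *Irs2* and -1.21 to 0.61 for *Igfbp7*. From resting to hypertrophic they ranged from -0.77 to 0.59 for *Igf1*, -0.64 to 0.025 for *Igf1r* and -0.039 to 0.65 for *Irs2*, and in *aadd* from -0.11 to 0.15 for *Igf2*, -0.20 to 0.0092 for *Igf1r*, -0.35 to 0.57 for *Igfbp2* and -0.041 to 0.20 for *Igfbp5*. With replicate 1 as the only hypertrophic library, *Igf1r* was at 0.31 from proliferative, and *Igf1*, *Igf1r* and *Igfbp4* were at 0.19, 0.59 and -0.68 from resting. The cause of these changes was not tested. With 3 libraries a group and few reads behind *Igfbp2*, *Igfbp3* and *Igfbp7*, intervals of these genes are wide.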
